A study of Mus musculus with 22 samples.

Results

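Immediate early and dissociation stress genes were examined in microglia and astrocytes sorted from mouse cortex. The set held 33 genes, picked by gene symbol, of 22485 genes on the array. Each gene was read from its probe with the highest mean over all 22 samples, and every one of the 33 had a value in every sample. The groups were microglia from APPswe/PS1dE9 mice (APP/PS1, n = 7) and from wild-type littermates (WT, n = 7), and astrocytes from APP/PS1 mice (n = 4) and from WT littermates (n = 4). All mice were C57BL/6 and 15 to 18 months old. APP/PS1 mice carry mutant human APP and presenilin 1 transgenes driven by prion protein gene sequence, which is active in many brain cells, and develop cortical amyloid plaques. Every sample, WT included, came from perfused cortex that was chopped, digested with papain at body temperature, cleared of myelin, stained and sorted alive. Microglia were taken as CD11b and CD45 positive cells, and astrocytes as GLT1 positive, CD11b negative cells.

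RNA was amplified, labelled with Cy3 or Cy5 and hybridised to dual-colour Agilent arrays. On each of the 11 arrays a WT sample was paired with the APP/PS1 sample of the same replicate number and cell type. Values are deposited log2 intensities, so a difference of 1 is a doubling. Their precision is limited by the number of arrays. The labels call the samples biological replicates. For genotype effects a single spread per gene was estimated over the arrays of both cell types, most of them microglia arrays. Standard errors and p-values in astrocytes therefore do not measure the spread among the astrocyte arrays alone. Microglia arrays lay on slides 1 and 2 and astrocyte arrays on slide 3. Effects of slide and of cell type therefore cannot be told apart. The sort labels were checked against defining markers. The glutamate transporter gene Slc1a2 lay at 13.96 to 15.77 in APP/PS1 astrocytes and 15.70 to 16.20 in WT astrocytes, against 5.12 to 6.63 in APP/PS1 microglia and 6.08 to 7.70 in WT microglia. The fractalkine receptor gene Cx3cr1 lay at 8.997 to 11.94 in APP/PS1 astrocytes and 6.72 to 9.59 in WT astrocytes, against 15.81 to 16.64 in APP/PS1 microglia and 16.92 to 17.73 in WT microglia. The water channel gene Aqp4 lay at 12.23 to 14.40 in APP/PS1 astrocytes and 13.92 to 14.43 in WT astrocytes. It was at most 6.70 in APP/PS1 microglia and 6.98 in WT microglia. The microglial gene Tmem119 lay at 6.502 to 8.82 and 5.48 to 7.50 in APP/PS1 and WT astrocytes, against 13.75 to 14.43 and 15.10 to 16.12 in APP/PS1 and WT microglia. In such bulk samples, fewer cells of a type and less RNA per cell cannot be told apart.

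Immediate early genes are transcribed within minutes of a stimulus, without new protein synthesis, when kinases act on factors already bound at their promoters, such as serum response factor and CREB. Many encode transcription factors (the AP-1, Egr and Nr4a families), and others encode phosphatases, RNA-decay proteins and NF-kappaB inhibitors that end the response. Warm enzymatic dissociation of brain is a known inducer of these genes and of heat shock chaperones in microglia and other cells.

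Promoter sequences are shown because these genes are known for a few shared control elements and because many of them moved together below. RefSeq sequence (build GRCm38.p6) was at hand for 27 of the 33 genes, all but Arc, Egr1, Egr3, Ier2, Myc and Nfkbiz. The 4 printed are those of Fos, whose genotype effect differed between the cell types with the smallest adjusted p in the set, of Dusp5, the single gene whose astrocyte effect was lower than its microglia effect past the threshold, of Dusp1, which holds a full cyclic AMP response element (CRE), and of the heat shock gene Hspa1a. Each is the 250 bases before the transcription start, written 5′ to 3′ on the gene's strand, with capitals marking motif matches on either strand.
Fos, chr12:85473640-85473889, plus strand: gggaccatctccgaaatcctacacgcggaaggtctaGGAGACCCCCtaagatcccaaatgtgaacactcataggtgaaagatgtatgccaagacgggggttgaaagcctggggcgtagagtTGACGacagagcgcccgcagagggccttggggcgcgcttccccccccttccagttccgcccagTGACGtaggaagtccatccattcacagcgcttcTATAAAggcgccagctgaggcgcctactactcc
Dusp5, chr19:53528895-53529144, plus strand: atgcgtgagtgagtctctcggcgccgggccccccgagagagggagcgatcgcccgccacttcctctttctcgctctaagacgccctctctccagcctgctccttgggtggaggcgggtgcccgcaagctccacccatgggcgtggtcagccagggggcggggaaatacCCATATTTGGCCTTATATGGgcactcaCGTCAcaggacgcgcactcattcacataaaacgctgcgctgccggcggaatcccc
Dusp1, chr17:26508473-26508722, minus strand: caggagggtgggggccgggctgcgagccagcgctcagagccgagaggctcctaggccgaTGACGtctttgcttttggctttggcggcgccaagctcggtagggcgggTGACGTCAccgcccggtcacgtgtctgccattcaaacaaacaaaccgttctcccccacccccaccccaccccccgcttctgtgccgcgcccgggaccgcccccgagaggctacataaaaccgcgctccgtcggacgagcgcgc
Hspa1a, chr17:34972157-34972406, minus strand: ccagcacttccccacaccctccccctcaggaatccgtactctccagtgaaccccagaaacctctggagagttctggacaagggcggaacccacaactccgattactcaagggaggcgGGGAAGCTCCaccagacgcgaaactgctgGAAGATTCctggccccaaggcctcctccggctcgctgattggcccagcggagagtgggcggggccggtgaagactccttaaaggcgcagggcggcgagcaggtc

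The capitals in Fos mark the short CRE motif TGACG at 2 places, a match to the NF-kappaB consensus and the TATA box core TATAAA. In Dusp5 they mark adjoining matches to the CArG box, the serum response factor element, and the short CRE motif on the opposite strand. In Dusp1 they mark the full CRE TGACGTCA and a separate short motif, and in Hspa1a the heat shock element core GAANNTTC and an NF-kappaB consensus match. The short motif also lies within every full CRE. Over the 27 genes it was present in 15, or in 17 of 32 distinct start windows (53.1%), against 17.9% of 32536 windows of all genes. The full CRE was found in Btg2, Dusp1 and Ppp1r15a (11.1% of the 27 genes, 9.38% of windows), against 1.56% of all windows. CArG boxes were found in Dusp5, Egr2 and Zfp36 (18.8% of windows, since Egr2 has several starts), against 1.48% of all windows. The NF-kappaB consensus was found in 8 genes (25% of windows, 7.28% of all), the heat shock core in Fosl2, Hspa1a, Hspb1 and Jun (12.5%, 6.72% of all) and TATAAA in 4 genes (12.5%, 12.3% of all). The AP-1 site TGANTCA was found in 0 of these windows, and in 6.73% of all. These are letter matches in one window and were not set against the expression values by a test.

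In WT cells the set was far higher in microglia than in astrocytes, with a few exceptions. Between WT astrocytes and WT microglia, 26 of 33 genes were lower and 3 higher in astrocytes (limma, Benjamini-Hochberg adjusted p under 0.05 over 22394 genes). Of all genes tested 53.3% were called, 18.0% lower and 35.3% higher. The median difference, astrocytes minus microglia, was -2.61 log2 units over the set and 0.34 over all genes. Most called genes of the table were thus higher in astrocytes, and most of the set was lower.

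The widest gaps were those of Atf3, a stress-induced ATF factor, Zfp36, which promotes decay of cytokine mRNAs, and Egr2, a zinc finger factor. Atf3 was at 10.14, 8.82, 7.53 and 9.50 in WT astrocytes, against a lowest, median and highest value of 14.61, 15.22 and 15.38 in WT microglia (-6.10 ± 0.37 SE, limma adjusted p = 1.54e-11). Zfp36 differed by -5.99 ± 0.28 and Egr2 by -5.84 ± 0.53. The groups did not overlap for any of the 3. Junb, Gadd45b, Myc, Egr1, Nfkbiz and Ier5 had differences between -5.35 and -4.47. Fos itself was at 12.35, 10.80, 10.68 and 12.18 in WT astrocytes, against 13.68, 14.11 and 14.39 (lowest, median, highest) in WT microglia, a difference of -2.61 ± 0.33 (limma adjusted p = 1.06e-06).

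The 3 genes that were higher in WT astrocytes were Hspb1, Nr4a2 and Gadd45g. Hspb1, a small heat shock protein, was at 15.83, 15.40, 14.36 and 15.61 in WT astrocytes, against 10.90, 11.49 and 11.83 in WT microglia (lowest, median, highest; 3.88 ± 0.26, limma adjusted p = 7.79e-11). Nr4a2, an orphan nuclear receptor, differed by 2.41 ± 0.45 and Gadd45g, a growth arrest protein that activates stress kinases, by 0.88 ± 0.20. None of these 3 overlapped between WT astrocytes and WT microglia. Arc, Dnajb1, Fosl2 and Npas4 did not pass, with differences of -0.25, -0.28, -0.14 and 0.21. With slide as the random block 23 genes passed, 1 higher and 22 lower in astrocytes. Those lost were Egr3, Nr4a2, Nr4a3, Hspa1a, Gadd45g and Ppp1r15a. Of all genes 4875 were then higher and 2386 lower, against 7900 and 4040 in the main fit.

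**Figure D1:**
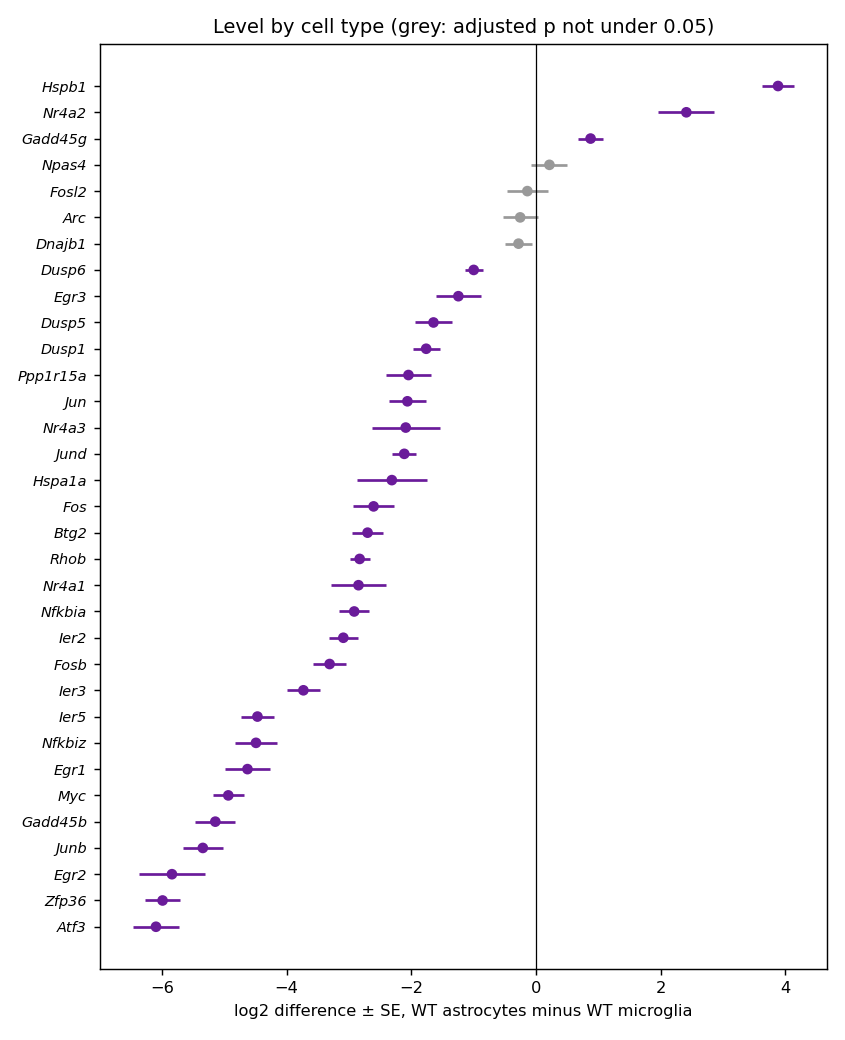
Differences in log2 value between WT astrocytes and WT microglia (astrocytes minus microglia, x axis) for the 33 genes, with standard errors as bars and genes that did not pass in grey. Hspb1 stands at 3.88 and Atf3 at -6.10, and 26 of 33 genes lie past the threshold on the lower side.

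In astrocytes from APP/PS1 mice most of the set was higher than in WT astrocytes. Of 33 genes 23 rose and 1 fell (limma adjusted p under 0.05), while 33.5% of 22460 genes tested were called, 15.4% higher and 18.0% lower. The median difference, APP/PS1 minus WT, was 1.12 log2 units over the set and -0.07 over all genes. Samples of the 2 genotypes did not overlap for 9 of the 33 genes, against 17.4% of genes measured in all astrocyte samples.

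Among the AP-1 and ATF factors, which bind DNA as pairs of Fos, Jun and ATF proteins, 6 of 7 rose, with a median difference of 1.47. Fos was at 14.78, 13.70, 12.98 and 13.37 in APP/PS1 astrocytes, against 12.35, 10.80, 10.68 and 12.18 in WT astrocytes. It rose on 4 of 4 arrays, with no overlap, by 2.21 ± 0.23 SE (4.62-fold, limma adjusted p = 0.000186), and its 10 probes gave mean differences of 2.07 to 2.21. Atf3 was at 12.14, 10.91, 9.71 and 10.45 in APP/PS1 astrocytes, against 10.14, 8.82, 7.53 and 9.50 in WT astrocytes. It rose on 4 of 4 arrays by 1.81 ± 0.20 (adjusted p = 0.000263), although the groups overlapped. Junb rose by 1.51 ± 0.20, Fosb by 1.47 ± 0.14, Fosl2 by 1.26 ± 0.22 and Jund by 0.74 ± 0.14. The 2 probes of Fosl2 gave mean differences of 0.49 and 1.26. Jun did not pass (0.59 ± 0.24, adjusted p = 0.0809) and was lower on 1 array.

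Among the other transcription factors, Egr1, Egr2 and the neuronal activity factor Npas4 passed. Egr2 was at 8.48, 7.70, 6.72 and 7.10 in APP/PS1 astrocytes, against 5.68, 3.94, 3.06 and 6.28 in WT astrocytes. The groups did not overlap (2.76 ± 0.42, limma adjusted p = 0.000967). The lower WT values lie near the low end of the scale, and with no background measurement in the table the size of this difference is uncertain. Egr1, a zinc finger factor of the same family, was at 12.995, 11.68, 11.43 and 11.39 in APP/PS1 astrocytes, against 10.47, 8.96, 8.60 and 9.96 in WT astrocytes. It too was higher in every APP/PS1 sample than in any WT sample (2.37 ± 0.25, adjusted p = 0.000214). Npas4 rose by 1.45 ± 0.19, while the third family member Egr3, near the low end of the scale, did not pass (0.35 ± 0.29), nor did the growth-promoting factor Myc (-0.20 ± 0.20). Of the Nr4a nuclear receptors, Nr4a1 rose by 1.38 ± 0.34 and Nr4a2 by 1.12 ± 0.30. Nr4a3 differed by 1.04 ± 0.41 (limma adjusted p = 0.0804), with no overlap between the groups, and its 10 probes gave mean differences of 0.49 to 1.90. It lay at 4.49 to 5.71 in APP/PS1 astrocytes and 2.81 to 4.39 in WT astrocytes. These values are near the low end of the scale, and the size of this difference is uncertain.

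Several genes that end the response rose as well. Dusp1, a nuclear phosphatase of stress kinases, was at 12.08, 11.55, 11.32 and 11.65 in APP/PS1 astrocytes, against 11.37, 10.06, 10.63 and 10.95 in WT astrocytes (0.89 ± 0.15, limma adjusted p = 0.00167). One of the WT samples lay above the lowest APP/PS1 sample. The anti-proliferative gene Btg2 rose by 1.17 ± 0.12, Zfp36 by 0.93 ± 0.15 and the NF-kappaB inhibitor gene Nfkbia by 0.81 ± 0.19. Nfkbiz, a nuclear NF-kappaB cofactor gene and not itself an inhibitor of this kind, rose by 1.42 ± 0.20. Dusp6 and Dusp5, both ERK phosphatase genes, did not rise. Dusp6 was at 12.02, 11.81, 11.97 and 11.95 in APP/PS1 astrocytes, against 12.55, 12.36, 12.67 and 12.50 in WT astrocytes. It was the single gene that fell (-0.58 ± 0.10, adjusted p = 0.00194), on 4 of 4 arrays and without overlap. Dusp5, at 3.85 to 4.10 in APP/PS1 astrocytes and 3.88 to 4.34 in WT astrocytes, did not pass (-0.09 ± 0.20). These values lie near the low end of the scale, and with no background measurement its detection in astrocytes is uncertain.

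Of 8 further early response genes 5 rose. The anti-apoptotic gene Ier3 rose by 1.52 ± 0.17, with no overlap. Gadd45b rose by 1.56 ± 0.19, Ppp1r15a, which restores translation after stress, by 1.23 ± 0.23, Ier2 by 1.14 ± 0.14 and Ier5 by 0.86 ± 0.13. The small GTPase gene Rhob (0.21 ± 0.12), Arc, a synaptic gene (0.09 ± 0.22), and Gadd45g (-0.03 ± 0.16) did not pass. Among the 3 chaperone genes, Hspa1a was at 12.05, 12.91, 9.88 and 11.99 in APP/PS1 astrocytes, against 10.74, 9.82, 8.39 and 11.30 in WT astrocytes. It rose on 4 of 4 arrays by 1.64 ± 0.37 (3.12-fold, limma adjusted p = 0.00711), and its probe may also read the near-identical Hspa1b. Hspb1 rose by 0.90 ± 0.14, whereas the co-chaperone gene Dnajb1 did not pass (0.28 ± 0.16). Of the 24 calls 22 were made in every fit that left out 1 array. The exceptions were Nr4a1 (limma adjusted p up to 0.0685, without replicate 2) and Nr4a2 (up to 0.0954, without replicate 1 or 2). These fits still drew on the microglia arrays for the spread. Fitted on astrocytes alone, 21 genes were called, and the calls of Egr2, Nr4a1, Dusp1 and Hspa1a were lost. In that fit 1489 of 22416 genes tested were higher and 1365 lower, against 3465 and 4050 in the main fit.

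**Figure D2:**
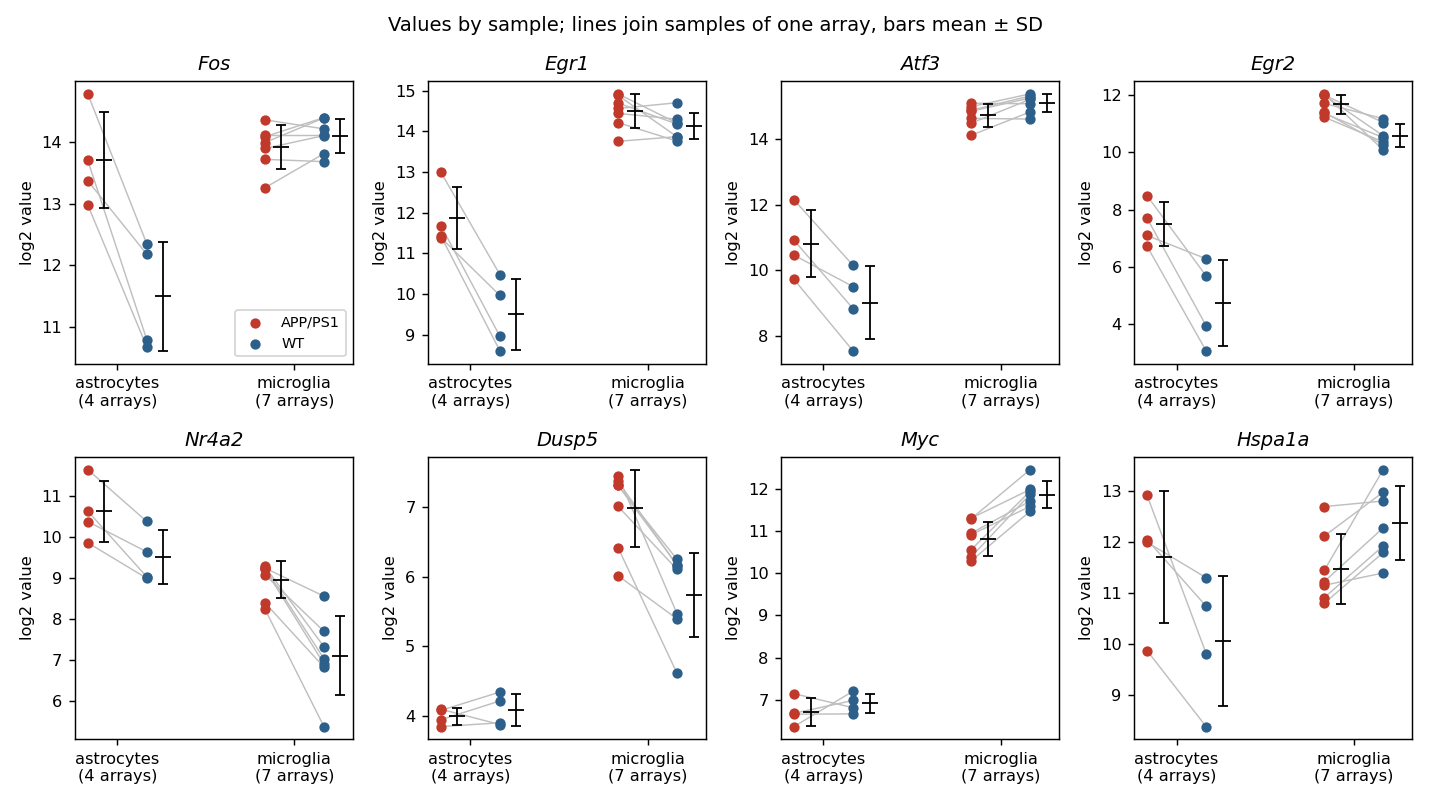
Deposited log2 values of 8 genes in every sample, with APP/PS1 samples left of WT samples within astrocytes and microglia, lines joining the 2 samples of an array, and bars giving mean ± SD. Fos lies at 12.98 to 14.78 in APP/PS1 astrocytes and 10.68 to 12.35 in WT astrocytes, while Myc separates the genotypes in microglia, and Dusp5 is higher in APP/PS1 on each of the 7 microglia arrays with overlap between the groups.

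Markers of other cells moved with genotype in the same astrocyte samples. Over all genes 15.4% were called higher and 18.0% lower. Of 14 microglia markers tested 12 were higher and 1 lower in APP/PS1 astrocytes, with a median difference of 1.90. Their summed level, expressed as log2, was 13.65 to 15.66 in APP/PS1 astrocytes and 13.56 to 14.57 in WT astrocytes, against 19.28 to 19.54 in APP/PS1 microglia and 19.63 to 19.84 in WT microglia. Endothelial markers were higher for 10 of 11 (median 1.12, sums of 17.87 to 18.60 in APP/PS1 and 16.79 to 17.84 in WT astrocytes) and mural markers for 7 of 9 (median 2.00, sums of 17.53 to 19.09 in APP/PS1 and 14.88 to 17.61 in WT astrocytes). Of 15 astrocyte markers 14 were lower and 1 higher (median -1.33, sums of 17.30 to 19.08 in APP/PS1 and 19.39 to 19.51 in WT astrocytes). Neuron markers were higher for 2 and lower for 3 of 13, a share near that of all genes. Oligodendrocyte markers were higher for 3 and lower for 2 of 9, and perivascular macrophage and monocyte markers higher for 3 of 9. By array, replicates 1 to 4, the set's median difference was 1.30, 1.41, 0.90 and 0.69. That of the microglia markers was 3.42, 1.75, 2.19 and 0.73, and that of the mural markers 1.67, 2.91, 2.16 and 1.21. The part of these cells in the rise of the set was not tested.

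A few genes reached or passed the microglia range in astrocyte samples. Fos in APP/PS1 astrocyte replicate 1 (14.78) was above all 14 microglia samples, whose highest value was 14.39. Cx3cr1 in that sample was 11.94, the highest of the astrocyte samples and below the lowest microglia value of 15.81. The part of other cells in this Fos value was not tested. Npas4 was at 8.43, 7.95, 6.61 and 7.42 in APP/PS1 astrocytes. Of these 4 samples 3 were above the highest microglia value of 6.79, as was 1 of the 4 WT astrocyte samples. Hspb1 lay at 15.44 to 16.58 in APP/PS1 astrocytes and 14.36 to 15.83 in WT astrocytes, above all microglia samples, of which the highest was 11.83. Nr4a2 in all 4 APP/PS1 astrocyte samples (9.86 to 11.64) was likewise above the highest microglia value of 9.28, as it was in 2 of the 4 WT samples. Gadd45g, which did not rise in APP/PS1 astrocytes, was above the highest microglia value of 13.08 in all 4 APP/PS1 and all 4 WT astrocyte samples. For the other genes that rose in APP/PS1 astrocytes, apart from Fosl2 in 1 APP/PS1 sample, no astrocyte sample exceeded the microglia range.

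Levels of the set were unevenly spread over the astrocyte samples of both genotypes. APP/PS1 replicate 1 was the highest of the 8 samples for 24 of 33 genes, against 17.8% of all genes, and WT replicate 3 the lowest for 18, against 20.5% of all genes. Within WT astrocytes, replicates 1 and 4 were above the group mean for 31 and 28 of 33 genes, and replicates 2 and 3 for 5 and 4. Cx3cr1 in these WT samples was at 8.56, 6.72, 6.89 and 9.59 in order of replicate. In APP/PS1 astrocytes Cx3cr1 was at 11.94, 8.997, 9.37 and 9.63, while 30, 15, 4 and 13 of the 33 genes were above the group mean in the same order. The part of microglial RNA in these sample differences was not tested. Over all genes, 49.5% to 56.1% lay above the group mean in each WT astrocyte sample.

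In microglia the set was split rather than shifted. Of 33 genes 10 rose and 10 fell in APP/PS1 microglia (limma adjusted p under 0.05), against 19.7% of 22383 genes called, 8.27% higher and 11.4% lower. The median difference, APP/PS1 minus WT, was -0.21 over the set and -0.04 over all genes. The genotypes did not overlap for 4 of the 33 genes, against 4.42% of genes measured in all microglia samples.

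The largest rises were those of the nuclear receptor genes Nr4a2 and Nr4a3 and of Dusp5, a nuclear phosphatase of ERK. Nr4a2 had a lowest, median and highest value of 8.24, 9.21 and 9.28 in APP/PS1 microglia, against 5.37, 7.03 and 8.55 in WT microglia (1.87 ± 0.23, limma adjusted p = 0.000431). Dusp5 was at 6.02, 7.32 and 7.45 in APP/PS1 microglia, against 4.61, 6.11 and 6.25 in WT microglia (1.27 ± 0.15, adjusted p = 0.000311). Both were higher in the APP/PS1 sample on 7 of 7 arrays, though the groups overlapped. Nr4a3 rose by 1.59 ± 0.31, and its 10 probes gave mean differences of 1.39 to 1.65. The 2 probes of Nr4a2 lay farther apart, with mean differences of 1.22 and 1.86. Egr2 was at 11.23, 11.71 and 12.05 in APP/PS1 microglia, against 10.08, 10.52 and 11.18 in WT microglia, and was the single gene higher without overlap (1.09 ± 0.32, adjusted p = 0.0399). Fosl2 rose by 0.93 ± 0.17, Ier2 by 0.71 ± 0.10, Ier3 by 0.66 ± 0.13, Npas4 by 0.55 ± 0.14, Fosb by 0.36 ± 0.11 and Btg2 by 0.31 ± 0.09.

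Myc, Jun and Rhob were the 3 genes that fell without overlap. Myc was at 10.29, 10.91 and 11.30 in APP/PS1 microglia, against 11.47, 11.87 and 12.45 in WT microglia (-1.05 ± 0.15, limma adjusted p = 0.00107). Jun, the AP-1 factor activated by stress kinases, was at 14.69, 15.29 and 15.61 in APP/PS1 microglia, against 15.95, 16.17 and 16.35 in WT microglia (-0.89 ± 0.18, adjusted p = 0.00688). Rhob was at 11.10, 11.51 and 11.64 in APP/PS1 microglia, against 11.99, 12.16 and 12.33 in WT microglia (-0.73 ± 0.09, adjusted p = 0.000595). Each was lower in the APP/PS1 sample on 7 of 7 arrays. The 2 probes of Rhob gave mean differences of -0.74 and -0.45. Jund fell by 0.55 ± 0.11, Gadd45g by 0.55 ± 0.12, Dusp6 by 0.47 ± 0.08, Arc by 0.55 ± 0.17 and Ier5 by 0.35 ± 0.10 on the log2 scale. The second Ier5 probe did not share this direction, with a mean difference of 0.07. Both chaperones that rose in astrocytes fell here. Hspa1a was at 10.80, 11.23 and 12.69 in APP/PS1 microglia, against 11.39, 12.28 and 13.41 in WT microglia (-0.91 ± 0.28, adjusted p = 0.0482), and Hspb1 differed by -0.37 ± 0.11.

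Fos did not pass in microglia. It was at 13.26, 13.99 and 14.36 in APP/PS1 microglia, against 13.68, 14.11 and 14.39 in WT microglia (-0.20 ± 0.17, limma adjusted p = 0.484). The groups overlapped almost fully. Egr1 (0.37 ± 0.19), Nr4a1 (0.30 ± 0.26), Ppp1r15a (0.37 ± 0.18), Gadd45b (0.20 ± 0.15) and Nfkbiz (0.48 ± 0.15, adjusted p = 0.0503) also did not pass. The same held for Atf3 (-0.37 ± 0.16), Dusp1 (-0.35 ± 0.12, adjusted p = 0.0602), Nfkbia (-0.30 ± 0.15), Egr3 (-0.28 ± 0.22), Junb (-0.23 ± 0.15), Dnajb1 (-0.22 ± 0.12) and Zfp36 (-0.21 ± 0.11).

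When single microglia arrays were left out 13 to 16 genes were called in microglia, 13 of them without replicate 3, 4 or 6. Calls made in every such fit were those of Fosl2, Jun, Jund, Ier2, Ier3, Nr4a2, Nr4a3, Dusp5, Dusp6, Myc, Gadd45g and Rhob, 12 of the 20. The other 8 calls (Fosb, Egr2, Ier5, Btg2, Arc, Npas4, Hspa1a and Hspb1) were each lost without at least 4 of the 7 replicates in turn, with adjusted p up to 0.139. Microglia markers were lower for 5 and higher for 3 of 14 in APP/PS1 microglia (median -0.36), and perivascular macrophage and monocyte markers lower for 7 of 9 (median -0.96). Endothelial and mural markers were higher for 1 of 11 and 1 of 9, near the 8.27% of all genes called higher. Neuron markers were lower for 7 of 13, astrocyte markers lower for 7 and higher for 1 of 15 and oligodendrocyte markers higher for 2 of 9. Over all genes 11.4% were called lower. The part of these shifts in the members' differences was not tested.

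The genotype effect differed between the cell types for most of the set. The astrocyte effect minus the microglia effect was positive for 21 genes and negative for 1 (limma interaction contrast, adjusted p under 0.05), against 26.6% of 22380 genes called, 13.4% positive and 13.2% negative. The largest differences were those of Hspa1a (2.55 ± 0.47), Fos (2.41 ± 0.28), Atf3 (2.18 ± 0.26) and Egr1 (2.00 ± 0.32). Jund, Ier5, Hspa1a and Hspb1 rose in astrocytes and fell in microglia, and all 4 passed the contrast. The 8 genes that rose in both were Fosb, Fosl2, Egr2, Ier2, Ier3, Nr4a2, Btg2 and Npas4, and Dusp6 fell in both. For Dusp5 the effect was lower in astrocytes (-1.36 ± 0.25, limma adjusted p = 0.0031), where its values lay near the low end of the scale. Of the Nr4a genes 0 passed by limma, with differences of 1.07, -0.75 and -0.55 for Nr4a1, Nr4a2 and Nr4a3 (adjusted p = 0.0972, 0.184 and 0.479). Leaving out single arrays removed the calls of Egr2, Myc, Npas4 or Nfkbiz in at least 1 fit (adjusted p up to 0.15, 0.0942, 0.0762 and 0.0634), and the other 18 calls were made in every such fit.

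**Figure D3:**
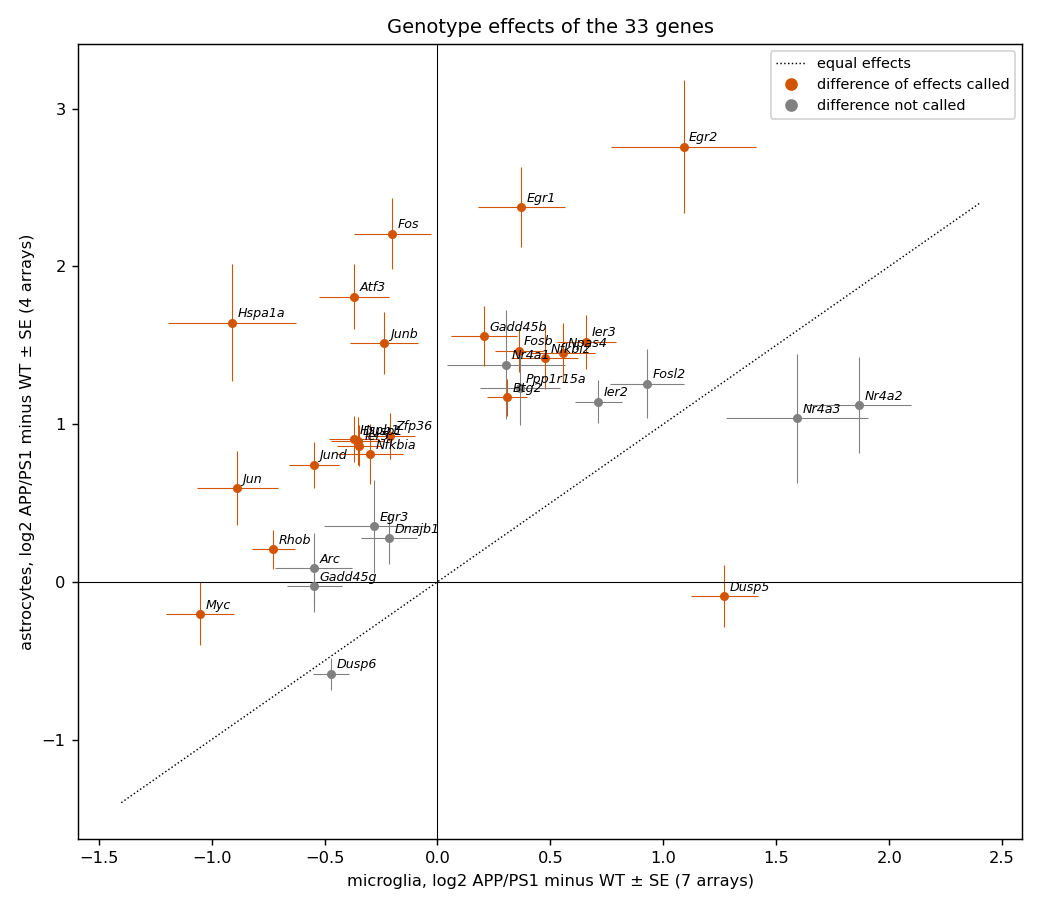
Genotype effects (log2 APP/PS1 minus WT ± SE) in microglia on the x axis and in astrocytes on the y axis for the 33 genes, with the dotted line marking equal effects and orange marking genes whose difference of effects passed. Most genes lie above the line and Dusp5 lies well below it. Hspa1a, Hspb1, Ier5 and Jund, called in both cell types in opposite directions, lie in the upper left quadrant. Genes not called in both cell types, such as Fos and Jun, lie there too.

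Wider lists of related genes, chosen with earlier results of these data known, were counted in the same fits. Of 38 other immediate early and feedback genes 21 were higher and 4 lower in APP/PS1 astrocytes (median 0.62), against 15.4% and 18.0% of all genes. In APP/PS1 microglia 10 were higher and 12 lower (median -0.01), against 8.27% and 11.4% of all genes. Those higher in astrocytes included the G protein regulator gene Rgs1 (2.61 ± 0.26) and the ERK phosphatase gene Dusp2 (2.41 ± 0.29). The kinase gene Sgk1 (1.35 ± 0.17) and the cytokine signalling inhibitor gene Socs3 (1.32 ± 0.13) were also among them. The part of other cells in these rises was not tested. In microglia the CREB-family gene Crem (1.75 ± 0.11), Id3, an inhibitor of basic helix-loop-helix factors (1.49 ± 0.10), and Tiparp, an ADP-ribosyltransferase gene (1.06 ± 0.12), rose and the factor gene Klf2 fell (-1.69 ± 0.18).

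Of 22 NF-kappaB feedback and early inflammatory genes 16 rose and 2 fell in astrocytes (median 1.36), against 15.4% and 18.0% of all genes. In microglia 12 rose and 0 fell by limma (median 0.44), against 8.27% and 11.4% of all genes. The cytokine gene Il1b rose by 3.93 ± 0.38 in astrocytes and 2.49 ± 0.29 in microglia. Its mean was 9.02 in APP/PS1 and 5.08 in WT astrocytes, against 15.85 and 13.29 in microglia. Between WT cell types 18 of the 22 genes were lower in astrocytes (median -3.81), against 18.0% of all genes. The part of microglial RNA in the astrocyte differences of this list was not tested. The chemokine genes Ccl4 (3.84 ± 0.44) and Ccl3 (2.51 ± 0.27) and the adhesion gene Icam1 (1.31 ± 0.19) rose in astrocytes, and Cxcl1 (3.12 ± 0.19), the prostaglandin synthase gene Ptgs2 (3.27 ± 0.25) and Nfkb2 (0.72 ± 0.10) in microglia. Of 20 other heat shock genes 3 were higher and 4 lower in astrocytes (median 0.01), a share near the 33.5% called over all genes, with the chaperone genes Cryab at 0.65 ± 0.15 and Dnajb6 at 0.49 ± 0.08, and Hsf2, a heat shock factor, at -0.65 ± 0.08 and Hspe1, of mitochondria, at -0.44 ± 0.11. In microglia 1 was higher and 2 lower (median -0.03), with 19.7% called over all genes, namely Hspa2 (0.79 ± 0.12), Hsp90aa1 (-0.55 ± 0.14) and Chordc1 (-0.33 ± 0.09), while Hsph1 did not pass (-0.51 ± 0.16).

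Covariation of the genes with Fos from sample to sample was measured over the 7 microglia arrays, the astrocyte arrays being too few. Over array means (the mean of both channels) the median Pearson r with Fos was 0.60 over the other 32 genes and 0.59 over all 16369 genes. An r above 0.8 was found for 9 of the 32 genes, against 7.92% of all genes. Over pairs of genes, 18.8% of the 528 pairs within the set were above 0.8, against 36.1% of all pairs of genes. Array means thus moved together across the whole table, and the set's median was like that of all genes. The 2 microglia samples of replicate 4, which shared an array, were the lowest in their groups for 75.1% (APP/PS1) and 63.5% (WT) of all genes. Without the 2 arrays farthest from the median of Fos the set's median was 0.14, and with Jun in place of Fos it was -0.01.

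Within-array differences, which are free of what both channels of an array share, gave another picture. Fos differed between the APP/PS1 and the WT sample by 0.00, -0.40, -0.21, 0.04, -0.55, 0.15 and -0.31 in replicates 1 to 7. Nfkbia differed by -0.03, -0.68, -0.11, 0.08, -0.90, 0.15 and -0.64, in the same order of arrays (Spearman rho = 1.00). The median r with Fos was 0.72 over the 32 genes and -0.05 over all genes, and 13 of the 32 genes had an r above 0.8, against 1.72% of all genes. By pairs, 14.8% within the set and 2.69% of all pairs were above 0.8.

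The highest were Nfkbia, Gadd45b and Nr4a1. Nfkbia had r = 0.96 with an exact permutation p = 0.000595, and p = 0.000397 for rho, the smallest that rho can reach with 7 arrays (adjusted over 16369 genes, 0.764 and 0.591). Gadd45b had r = 0.96 and rho = 0.96 (exact permutation p = 0.000397 and 0.00278, adjusted 0.764 and 0.784). Nr4a1 had r = 0.94 and rho = 0.93 (exact permutation p = 0.00139 and 0.00675, adjusted 0.764 and 0.913). Without the 2 arrays farthest from the median of Fos these 3 values of r were 0.93, 0.93 and 0.94, and centred within slide 0.98, 0.95 and 0.96. Of the 16369 genes 0 passed after adjustment in these exact permutation tests, while 14 of the 32 genes and 4.69% of all genes had an unadjusted p under 0.05.

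Values of r differed widely within the set. The value of r with Fos was below 0 for Hspa1a (-0.74), Gadd45g (-0.63), Hspb1 (-0.46), Dnajb1 (-0.29) and Egr3 (-0.28). None of these 5 passed, with exact permutation p = 0.0504 to 0.539 before adjustment and 0.977 to 0.978 after it. Hspa1a differed by -1.97, -0.24, -1.05, -0.99, -0.11, -1.01 and -0.86 in replicates 1 to 7, so that it was closest to 0 in replicates 2 and 5, where Fos was lowest relative to WT. Dusp6 (0.02), Arc (0.18), Npas4 (0.19) and Jund (0.24) showed little relation. Jun had r = 0.64, but -0.03 without the 2 farthest arrays. These values of r rest on 7 arrays with 1 APP/PS1 and 1 WT sample each. APP/PS1 microglia replicate 5, where Fos, Nfkbia and Jun were lowest relative to WT, was the lowest of its group for 16 of 33 genes, against 5.56% of all genes.

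**Figure D4:**
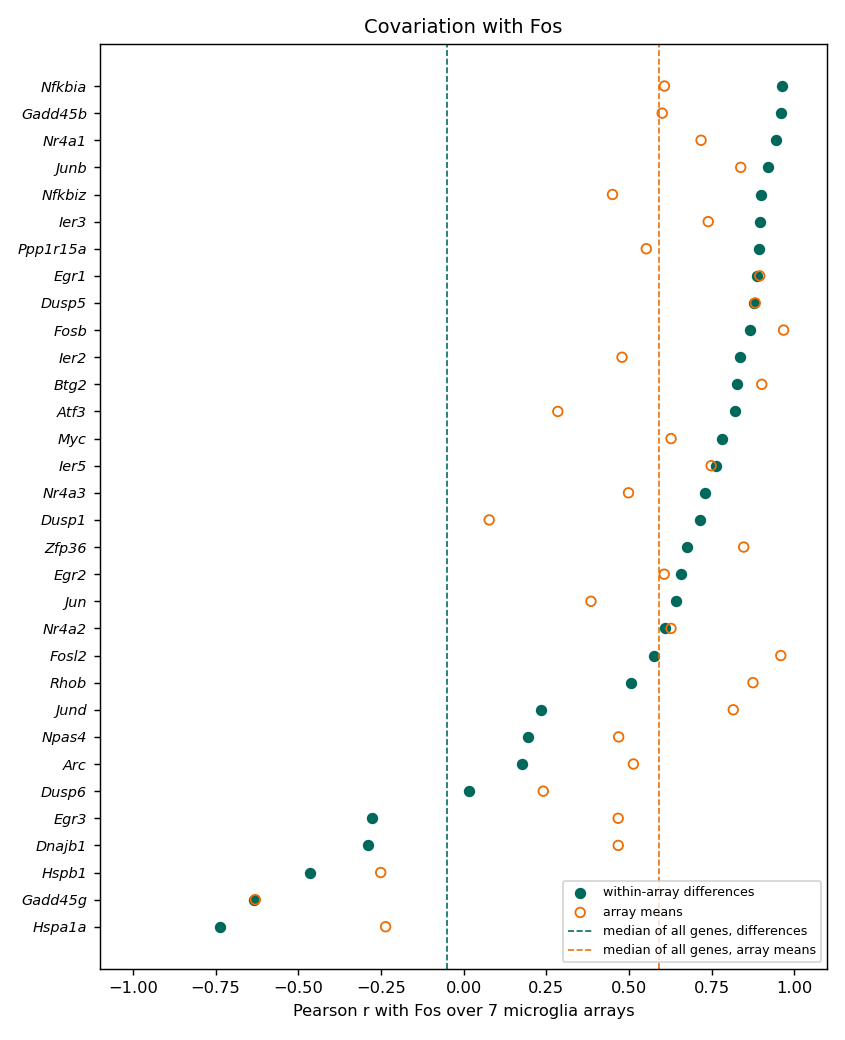
Pearson r of each of the 32 other genes with Fos over 7 microglia arrays, for within-array differences (filled points) and for array means (open points), with dashed lines at the medians of all genes. Differences of most genes lie far right of their all-gene median of -0.05, while array means scatter around theirs of 0.59.

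The differences by array show where the genes parted. In astrocytes the 33 genes were higher in the APP/PS1 sample for 29, 29, 28 and 27 genes in replicates 1 to 4. In microglia the count was 20, 16, 16, 20, 10, 21 and 15 in replicates 1 to 7, with median differences between -0.24 and 0.15.

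**Figure D5:**
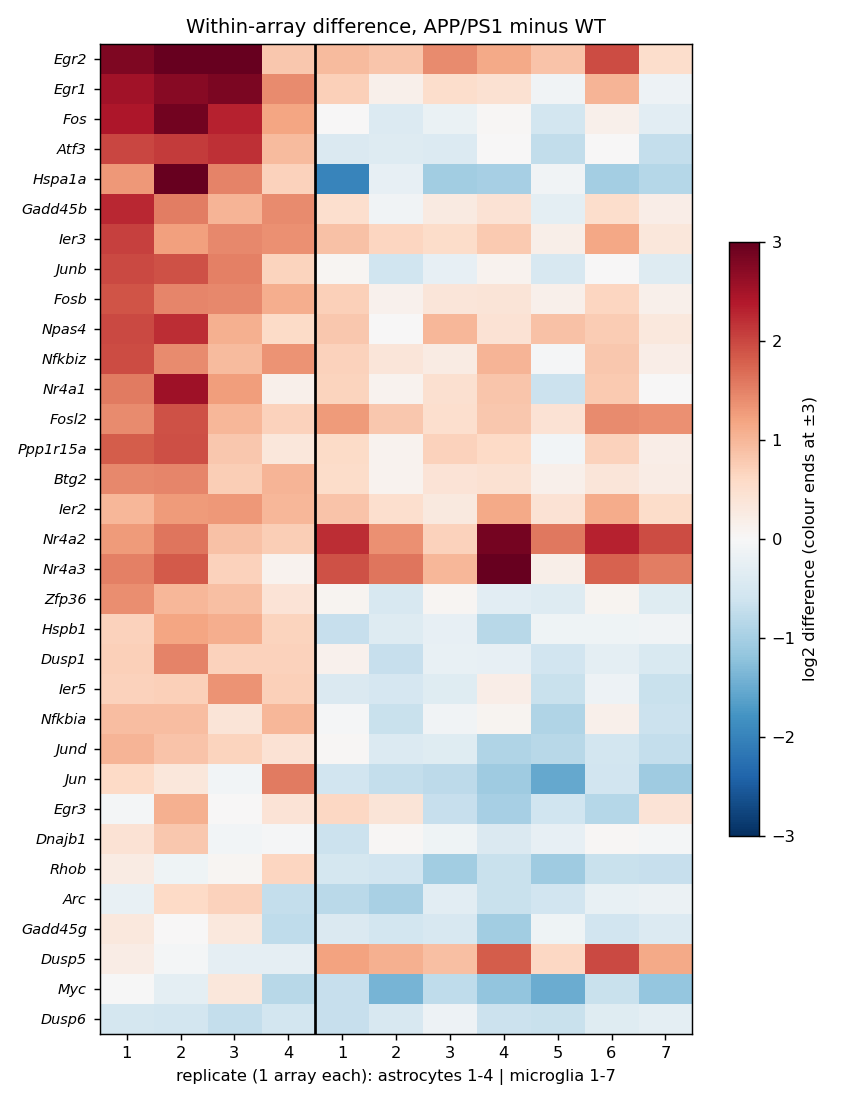
Within-array log2 differences, APP/PS1 minus WT, of the 33 genes (one line of cells each, ordered by the astrocyte effect) on 4 astrocyte arrays and 7 microglia arrays, with red for higher and blue for lower in APP/PS1. Astrocyte arrays are red for 27 to 29 genes, and microglia arrays divide into genes that are mostly red, such as Nr4a2 and Dusp5, and mostly blue, such as Myc and Rhob.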

How the data were processed

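Sorted microglia (7 APP/PS1, 7 WT) and astrocytes (4 APP/PS1, 4 WT) were measured on 11 dual-colour arrays. The authors deposited single-channel log2 values in 1 table. Per the submitters' processing notes limma was used, its version and the background correction and normalization not given in the sources used here. Of the probes 33026 named 1 gene, and 6138 genes had more than 1.

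Genotype effects were fitted with limma 3.58.1 (R 4.3.3, statmod 1.5.0) to the 22 samples together, using fixed array terms, a dye term and a genotype term per cell type. WT astrocytes and WT microglia were compared with dye and array as a random block (estimated correlation 0.64). Two-sided p-values were adjusted by Benjamini-Hochberg over every gene tested, with calls at 0.05. The array pairing comes from the labels, and same-array samples, centred within groups, correlated at a median r of 0.23 in astrocytes and 0.47 in microglia, against -0.12 and -0.20 for other arrays.

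Correlations with Fos used all 5040 orderings of 7 arrays, two-sided (Python 3.11.15, numpy 2.4.6, pandas 2.3.3, scipy 1.17.1, matplotlib 3.10.9). Scripts were tested on simulated data. The text names all 33 genes, up to 4 genes of each wider list per cell type by adjusted p, and 4 defining markers. The members, lists and alternatives were chosen with earlier results of these data known. Alternatives were other blocks, no dye term, quantile normalization, all probes averaged, other filters, single cell types, single slides and left-out arrays.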

Additional observations from a re-analysis of the deposited data

Results flagged for a closer look

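Among 132 combinations of gene and group, 10 held a sample set far apart from the others of its group by Dixon's test at the 95% level, which marks about 1 in 20 groups by chance. In APP/PS1 astrocytes these were Jund, with its highest value of 14.64 in replicate 1, Nr4a3, with 5.71 in replicate 1, and Ier5, with its lowest value of 7.88 in replicate 3. In WT astrocytes they were Fosb, with 10.14 as the highest value in replicate 1, and Ier5, with 6.54 as the lowest in replicate 3. In APP/PS1 microglia Npas4 had its lowest value of 5.75 in replicate 4. In WT microglia the lowest values of Junb (11.45), Ier5 (11.12) and Nr4a3 (3.37) were in replicate 4, and the highest of Dusp1 (13.01) in replicate 2. WT microglia replicate 4 was the lowest of its group for 63.5% of all genes.

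The genotype effect, astrocyte minus microglia, differed for 22 genes by the limma interaction contrast. The differences were 2.55 for Hspa1a, 2.41 for Fos, 2.18 for Atf3, 2.00 for Egr1, 1.75 for Junb, 1.67 for Egr2 and 1.48 for Jun. They were 1.35 for Gadd45b, 1.29 for Jund, 1.27 for Hspb1, 1.25 for Dusp1, 1.21 for Ier5, 1.13 for Zfp36, 1.11 for Nfkbia and 1.11 for Fosb. Smaller positive differences were 0.94 for Nfkbiz, 0.93 for Rhob, 0.90 for Npas4, 0.86 for Ier3, 0.86 for Btg2 and 0.85 for Myc. Dusp5, whose astrocyte values lay near the low end of the scale, had the single negative difference, -1.36.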

How the results depend on the processing

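Without the replicate block, so with unpaired samples, 9 genes were called in microglia and 18 in astrocytes, against 20 and 24. For the difference of effects 9 were called and between WT cell types 29, against 22 and 29. Over all genes these unpaired fits called 739 higher and 445 lower in microglia, against 1852 and 2552. In astrocytes they called 1387 higher and 1060 lower, against 3465 and 4050. For the difference 788 were positive and 703 negative, against 3004 and 2949. Between WT cell types 7918 were higher and 3984 lower in astrocytes, against 7900 and 4040. Over single left-out arrays the counts were 13 to 16 in microglia, 22 to 25 in astrocytes, 18 to 26 for the difference and 29 to 29 between cell types. In microglia 1469 to 1635 of all genes were then higher and 1831 to 2287 lower. In astrocytes 2675 to 3176 were higher and 2846 to 3663 lower. For the difference 2327 to 2942 were positive and 2074 to 3000 negative. Between WT cell types 7277 to 8216 were higher and 3684 to 4523 lower in astrocytes. In microglia 5 genes of the set passed by limma within slide 1 and 0 within slide 2. Of all genes 599 were higher and 440 lower within slide 1, of 18282 tested. Within slide 2 the count was 0 of 19794 genes tested, and 16 genes of the set had an unadjusted p under 0.05. Each slide holds fewer arrays. An alternative chosen after seeing the data kept arrays with both samples high or both low in Eif2s3y, a Y-linked gene. It dropped 2 of 4 astrocyte and 1 of 7 microglia arrays, on each of which the APP/PS1 sample was the high one. It gave 21, 12 and 18 calls in astrocytes, in microglia and for the difference. Of all genes 2207 were then higher and 2341 lower in astrocytes, and 1505 and 1889 in microglia. For the difference 1991 were positive and 1972 negative. The median correlation of array means with Fos (0.60) was 0.45 centred within slide, 0.76 in APP/PS1 samples, -0.0098 with Jun, 0.14 without the 2 farthest arrays and 0.48 to 0.71 over left-out arrays. That of differences (0.72) was 0.47 with Jun, 0.63 without the 2 farthest arrays and 0.66 to 0.80 over left-out arrays. The causes were not tested. In these alternatives 0 gene calls changed direction in the limma fits.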

Other observations

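The genes outside the set whose array means followed Fos most closely over the 7 microglia arrays were Pmfbp1, Tox2, Gm4986, Ocm and Dnm1, with r of 0.997, 0.995, 0.991, 0.991 and 0.988, and 0.985, 0.980, 0.981, 0.927 and 0.949 without the 2 arrays farthest from the median of Fos. None passed adjustment over 16369 genes (exact permutation, adjusted p = 0.33 for each), and 13.9% of all genes had an unadjusted p under 0.05.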
